A study of Bos taurus with 48 samples.

Results

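The 12 leukocyte libraries taken on day (d) 2 after weaning at housing were compared between treatments. They were 6 libraries of weaned calves and 6 of control calves, chosen by the day and the treatment in the sample labels, out of 48 libraries in the whole experiment. Total leukocyte RNA of Bos taurus calves, given as breed Continental in the labels and as intact male, spring-born Simmental calves in the study's methods, was sequenced on d 0 (before housing), 1, 2 and 7 in the same 12 animals. All calves, of both treatments, had been vaccinated against respiratory viruses before the trial, had grazed with their dams and were moved indoors on d 0. On that day the weaned calves were abruptly separated from their dams and penned with other weaned calves, while the control calves were housed with their dams. The comparison within d 2 therefore holds housing in common and differs in separation from the dam and in penning with other weaned calves, which cannot be told apart in this design. Each library was 1 blood sample of 1 animal with its red cells lysed, so that each value is an average over all white cell types.

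Abrupt weaning is a known stressor that raises circulating catecholamines and cortisol. Leukocytes carry beta-adrenergic receptors, which signal through the stimulatory G protein to raise cyclic AMP, and glucocorticoid and adrenergic signals are known to alter which leukocytes circulate as well as what they transcribe. Neutrophils, lymphocytes, monocytes, eosinophils and the rare basophils all contribute to blood leukocyte RNA, so a transcript found mainly in a rare cell type can differ through the number of those cells. In these bulk samples, fewer cells of a type and less RNA per cell cannot be told apart.

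The d 2 libraries held between 1662995 and 4256011 reads counted over genes (median 3730904). Levels are given as CPM, read counts scaled to a common library total by the trimmed mean of M-values (TMM), and a gene with 3 reads was at 0.692 to 2.04 CPM depending on the library. The shallowest was control calf 1759, and the deepest was weaned calf 1758. The library of weaned calf 1758 stood apart, with a correlation (Pearson, log2(CPM + 1), across genes) of 0.894 to 0.951 with the other 11 libraries, which correlated at 0.958 to 0.983 with each other. It held the highest value of the 12 libraries for 33.0% of the genes tested. The identity of the libraries was checked, for each calf in turn, with the 150 genes that differed most persistently among the other 11 calves. On these genes 11 of the 12 libraries of d 2 were closest to a library of their own calf from another day, at a best correlation of 0.746 to 0.891. The exception was the library labelled control calf 1755, whose correlation with that calf's own libraries was 0.00 on d 0, -0.02 on d 1 and -0.19 on d 7, against 0.545 with the d 0 library of weaned calf 1758. ALOX15, for instance, an arachidonate lipoxygenase abundant in eosinophils, was at 327, 314 and 263 CPM in calf 1755 on d 0, 1 and 7 and at 0.540 CPM in the library labelled as its d 2 sample. The d 2 library of weaned calf 1758 correlated at 0.812 with its own calf on d 1, but at 0.077 on d 0 and 0.384 on d 7. It was also the closest library of another calf to those of control calf 1755 on d 0 (0.38) and d 1 (0.49). The labels were kept, and values are also given without the d 2 libraries of 1755 and 1758 for many of the results. Few of the listed cell type markers could be matched to a gene. They were 2 of 18 for neutrophils, 2 of 8 for eosinophils and 4 of 7 for basophils and mast cells. For monocytes it was 1 of 10, and for natural killer (NK) cells 3 of 12. None of these was at 0 in all libraries, but they are too few to describe neutrophils or monocytes. No T cell, B cell or plasma cell marker could be matched to a gene by the symbols used here.

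**Figure D1:**
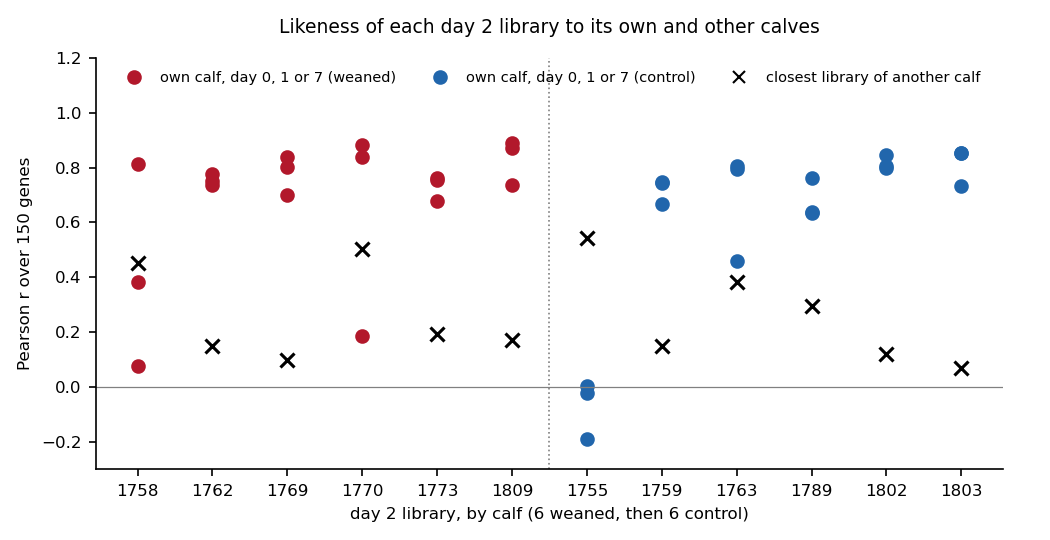
The horizontal axis holds the 12 libraries of d 2 by calf, and the vertical axis is the Pearson correlation over 150 genes that differ between animals, chosen for each calf on the other calves. Dots are the same calf's libraries of d 0, 1 and 7 and crosses are the closest library of any other calf. For 11 libraries the best dot lies between 0.746 and 0.891, above the cross, whereas in the library labelled control 1755 all dots lie near or below 0 and the cross lies at 0.545.

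No gene was called different between weaned and control calves on d 2 among 13949 tested, 0% at an adjusted p under 0.05 and at least 2-fold (edgeR quasi-likelihood test, Benjamini-Hochberg), where the smallest adjusted p was 0.905. An unadjusted p under 0.05 was reached by 470 genes (3.37%), of which 344 were higher in weaned calves (2.47%) and 126 lower (0.903%), and DESeq2 called 0 genes with 468 at an unadjusted p under 0.05. In simulated data of this design, the test recovered 33% of genes set 2-fold apart and 99% of those set 4-fold apart, with 7 false calls. The genes set apart were drawn from the better counted ones, so these shares do not cover sparsely counted genes. No simulated library stood apart as that of calf 1758 did. A recovery also needed an estimate of at least 2-fold, so a true 2-fold difference would often have been missed. Of the 344 higher genes, 258 had their highest value of all 12 libraries in weaned calf 1758. Without the libraries of calves 1755 and 1758, 159 of 13632 genes were higher (1.17%) and 109 lower (0.8%) at an unadjusted p under 0.05, 268 in all (1.97%), and again none was called. An exact test with 1 common dispersion for all genes called 75 genes (0.538%), 44 higher and 31 lower, and it assumes that the animals vary equally in every gene. Symbols were at hand for 595 of the genes tested, all of them genes that the study had called in some comparison. They leaned upwards on d 2, with 458 higher and 137 lower in weaned calves and a median log2 difference of 0.43, against 0.03 over all genes tested. At an unadjusted p under 0.05 they held 59 higher and 28 lower genes. Without the libraries of calves 1755 and 1758 they were 318 higher and 252 lower with a median of 0.06, and 26 were higher and 28 lower at that threshold. The counts and medians of the lists are read beside these values. The study's own pathway lists for d 2 held 101 tested genes, 36 higher and 25 lower at an unadjusted p under 0.05, which is no independent evidence since they were chosen on these samples. All differences below are descriptions of single genes that did not pass the adjusted test: for every gene named by its symbol, the edgeR adjusted p was between 0.95 and 0.996. Fold differences are log2 of weaned over control with the standard error (SE) of the fit, n = 6 calves in each group unless a library is said to be left out.

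**Figure D2:**
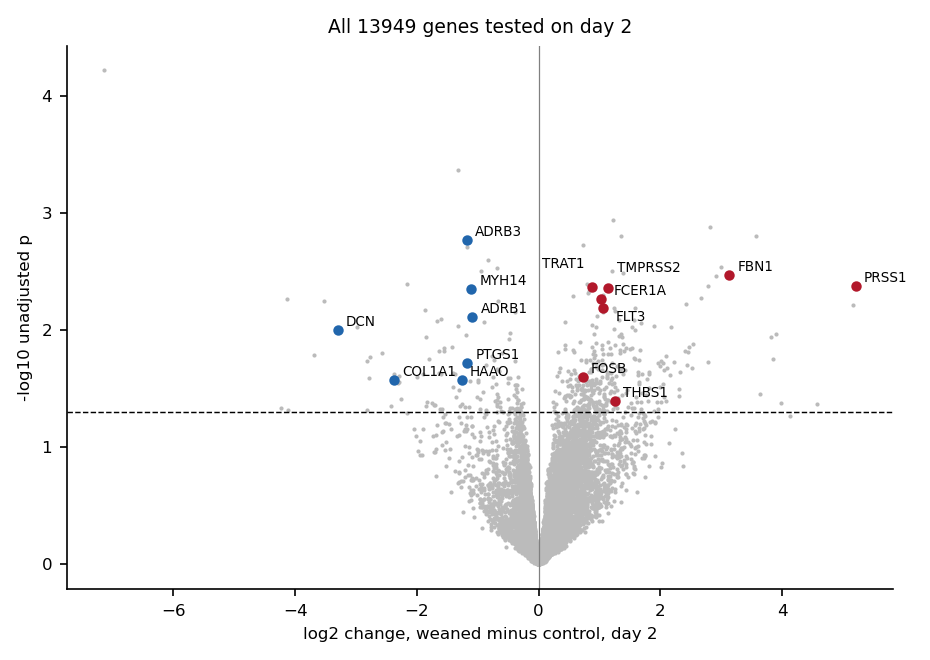
Each point is 1 of the 13949 genes tested on d 2, with the log2 difference of weaned over control calves on the horizontal axis and −log10 of the unadjusted p on the vertical axis. Above the line drawn at an unadjusted p of 0.05 lie 344 genes to the right of 0 and 126 to the left, and none passed the adjusted threshold.

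The beta-adrenergic receptor transcripts ADRB3 and ADRB1 had lower levels in weaned calves. ADRB3, the beta-3 receptor, was at 5.74, 7.87 and 11.0 CPM in the lowest, median and highest weaned library and at 8.68, 18.2 and 26.8 CPM in the control libraries. The groups overlapped only through the lowest control library: 5 of 6 control calves were above the highest weaned calf. The log2 difference was -1.18 (SE 0.31, exact permutation p = 0.00866), and without calves 1755 and 1758 it was -1.19. ADRB1, the beta-1 receptor and the main subtype of the heart, was at 1.43, 2.32 and 3.01 CPM in weaned and at 1.36, 4.50 and 8.10 CPM in control libraries. All 6 weaned calves were below the control median, and the log2 difference was -1.09 (SE 0.36, exact permutation p = 0.039), or -0.61 on the 8 libraries run on flowcells that carried both treatments.

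Downstream of these receptors, adenylate cyclases make cyclic AMP and phosphodiesterases degrade it. PDE4C, a phosphodiesterase of the cyclic AMP-specific family, was at 2.03, 3.34 and 5.56 CPM in weaned and 1.40, 6.98 and 12.9 CPM in control libraries, and 5 of 6 control calves were above every weaned calf. Its log2 difference was -1.004 (SE 0.41, exact permutation p = 0.0887), and on those 8 libraries it was -0.71. ADCY8, an adenylate cyclase, went the other way, at a median of 3.54 CPM in weaned and 2.17 CPM in control libraries (log2 difference 0.93, SE 0.43). GLP1R, the glucagon-like peptide 1 receptor, which also couples to the stimulatory G protein, was counted 14 times in weaned and 30 times in control libraries (log2 difference -1.15, SE 0.68). Of the 10 tested genes of a wider adrenergic and cyclic AMP list, 1 was higher and 3 were lower at an unadjusted p under 0.05, with a median log2 difference of -0.24. Over all genes tested these shares were 2.47% and 0.903%, and of the 595 tested genes with a symbol 59 were higher and 28 lower. Without calves 1755 and 1758, 1 of 7 genes of the list was higher and 2 were lower. The list median was then -0.60, and without calf 1758 alone it was -0.89 over 9 genes. The study had listed ADRB1, ADRB3, GLP1R and PDE4C under G-protein-coupled receptor signalling on d 2. They were chosen on these samples and are no independent evidence.

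**Figure D3:**
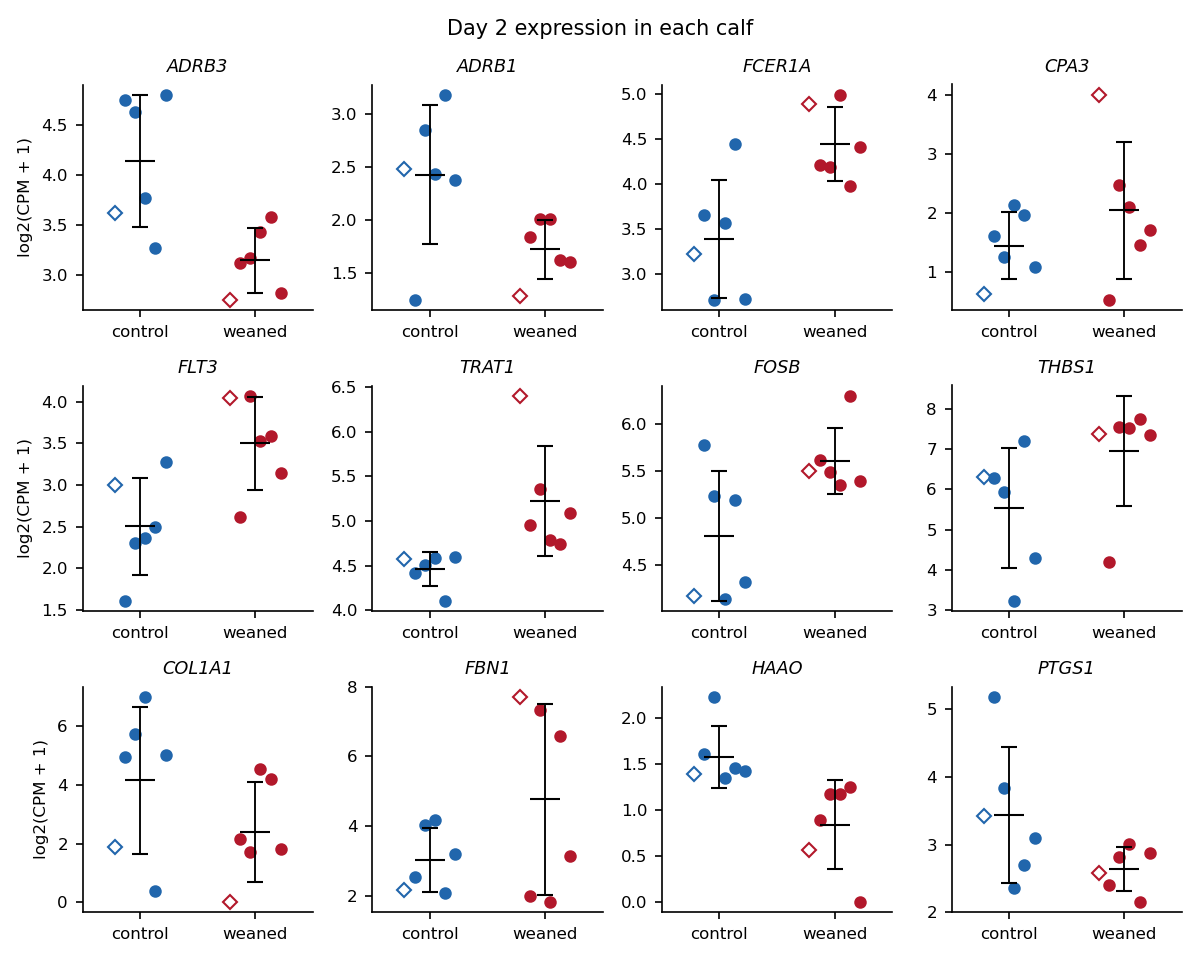
Every dot is 1 calf on d 2, with log2(CPM + 1) on the vertical axis and 12 genes in separate panels, and bars are the mean ± SD of 6 calves. Open diamonds are the library labelled control 1755 and that of weaned 1758. ADRB3 and HAAO lie lower in weaned calves, and FCER1A, FLT3 and TRAT1 higher, while in CPA3 the weaned mean is raised by calf 1758 and in COL1A1 the control calves spread widely.

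Of 4 tested transcripts of basophils and mast cells, cells that carry the high-affinity IgE receptor, 1 was higher in weaned calves at an unadjusted p under 0.05. This stands against 2.47% of all genes tested and 59 of the 595 with a symbol. FCER1A, the alpha chain that binds IgE, was at 14.8, 18.9 and 30.9 CPM in weaned and 5.54, 9.62 and 20.8 CPM in control libraries. All 6 weaned calves were above the control median and 5 of 6 control calves were below the lowest weaned calf, with control calf 1802 as the exception. The log2 difference was 1.03 (SE 0.32, exact permutation p = 0.0108), 1.32 on the 8 libraries of flowcells that carried both treatments and 0.90 without calves 1755 and 1758. MS4A2, the beta chain of the same receptor, was at 0.428, 2.52 and 11.5 CPM against 1.15, 1.78 and 3.47 CPM, so its groups overlapped. CPA3, the carboxypeptidase of mast cell and basophil granules, was at 0.428, 2.77 and 15.1 CPM against 0.540, 1.71 and 3.37 CPM. Calf 1758 held 57.8% of the weaned CPA3 reads and 53.9% of the MS4A2 reads, and without it the log2 differences were 0.43 in place of 1.27 for CPA3 and 0.18 in place of 0.89 for MS4A2. KIT, the stem cell factor receptor, which is shared by mast cells and progenitors, differed by 0.26 on the log2 scale (SE 0.27). Of 7 listed markers, 4 could be matched and tested, and their summed level was 26.1 to 73.2 CPM in weaned and 18.9 to 33.5 CPM in control libraries, with 1758 the highest. The part of cell numbers in the FCER1A difference was not tested.

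Of 8 tested receptors for growth factors and cytokines, from a list of 48, 4 were higher and 0 lower at an unadjusted p under 0.05 (2.47% and 0.903% over all genes tested). Of the 595 tested genes with a symbol, the only ones a list can hold, 59 were higher and 28 lower at that threshold. By sign alone 6 receptors were higher and 2 lower, beside the 458 and 137 of all genes with a symbol. Without calves 1755 and 1758 it was 4 and 3 receptors, with 2 higher at that threshold. FLT3, the receptor that marks lymphoid and dendritic cell progenitors, was the best counted of the 4 that were higher at that threshold in all 12 libraries. It was at 5.14, 10.8 and 15.8 CPM in weaned and 2.04, 4.39 and 8.66 CPM in control libraries, and 4 of 6 weaned calves were above every control calf. Its log2 difference was 1.06 (SE 0.34, exact permutation p = 0.0152), and the value without calves 1755 and 1758 was also 1.06. CCRL1, a decoy chemokine receptor now called ACKR4, rested on few reads, 26 in weaned and 6 in control libraries, and was at least 1.17-fold higher. IL23R, the interleukin 23 receptor of T helper 17 and innate lymphoid cells, had 21 reads in weaned libraries, 12 of them in calf 1758, and 5 in control libraries. EDAR, a member of the tumour necrosis factor receptor family, had 9 and 1 reads, both at the floor of 3 counts per library, so no fold is given. CCBP2, the decoy receptor for inflammatory chemokines now called ACKR2, was on the low side with 13 reads in weaned and 29 in control libraries (log2 difference -1.20, SE 0.60). IL5RA, the interleukin 5 receptor of eosinophils, gave a log2 difference of 0.30 (SE 0.71) that was -0.75 without calf 1758, which held 62.2 CPM. The median of the receptor list was 0.68 on the log2 scale, and 0.18 without calves 1755 and 1758.

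Among cytokines and chemokines, 0 of the 14 tested were at an unadjusted p under 0.05 in either direction in edgeR (2 of 13 were higher without calves 1755 and 1758, and 1 of 13 without calf 1758), and DESeq2 and the common-dispersion test called none of those named here. The widest spread was in CXCL10, an interferon-induced chemokine that draws T cells, at 2.51, 7.22 and 83.9 CPM in weaned and 4.09, 11.1 and 44.6 CPM in control libraries. Its log2 difference was -0.03 (SE 0.76), which became -1.44 without weaned calf 1762, the highest library. IL8, now CXCL8, the main neutrophil chemoattractant, was low in nearly every library, with 48 reads in weaned calves, 37 of them in calf 1758, and 10 in control calves. It was at least 1.99-fold higher over the weaned group, and without calf 1758 its log2 difference was 0.30 in place of 1.90. With flowcell as a block, and on flowcells that carried both treatments, the direction turned and the difference was -0.52. LIF, a cytokine of the interleukin 6 family, was at 7.54, 13.2 and 24.1 CPM against 1.95, 8.33 and 13 CPM, with a log2 difference of 0.82 (SE 0.39, exact permutation p = 0.0433) and 4 of 6 weaned calves above every control calf. IL12B, the shared chain of interleukins 12 and 23, had medians of 5.89 and 3.77 CPM (log2 difference 0.61, SE 0.34). PDGFC, a platelet-derived growth factor, was counted 13 times in weaned and 42 times in control calves (log2 difference -1.52, SE 0.84).

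Early response and stress genes gave a mixed picture. FOSB, a subunit of the AP-1 transcription factor induced within minutes of stimulation, was at 39.7, 44.1 and 77.5 CPM in weaned and 16.6, 27.3 and 53.8 CPM in control libraries. Of the 6 control calves 5 lay below the lowest weaned calf, and the log2 difference was 0.72 (SE 0.29, exact permutation p = 0.0433). FOS, its best known relative, had medians of 203 and 153 CPM that overlapped (log2 difference 0.24, SE 0.28). HSPA6, a stress-inducible member of the 70 kDa heat shock family, was at 1.91 to 84.3 CPM in weaned libraries because calf 1762 held 197 of the 253 reads. Its log2 difference of 1.89 was -0.52 without that calf. HSPH1, a co-chaperone of the same family, was at a median of 44.9 CPM in weaned and 43.5 CPM in control libraries, with its highest value, 146 CPM, in calf 1758.

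TLR7 and TLR3, endosomal receptors for single-stranded and double-stranded RNA, overlapped between groups. TLR7 was at a median of 92.0 against 74.9 CPM (log2 difference 0.43, SE 0.25) and TLR3 at 26.8 against 24.8 CPM (log2 difference 0.47, SE 0.31), and both were highest in calf 1758. Without that calf the differences were 0.15 and 0.04 on the log2 scale. In the cell cycle list, 2 of 6 tested genes were higher at an unadjusted p under 0.05 (2.47% over all genes tested, 59 of 595 with a symbol). It was 0 of 6 once calf 1758, or both 1755 and 1758, had been left out. CCNE2, the cyclin that starts DNA replication, was at 3.0, 4.67 and 21.5 CPM against 1.30, 3.10 and 5.54 CPM (log2 difference 1.09, and 0.42 without calf 1758). OIP5 and CENPK, both needed at centromeres, had 23 and 24 reads in weaned and 9 each in control libraries. In each of these cell cycle genes the highest weaned library was again calf 1758.

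TRAT1, an adaptor that stabilises the T cell receptor complex, was 1 of 22 genes with every weaned calf above every control calf (0.158% of those tested). It was at 25.8, 31.6 and 83.7 CPM in weaned and 16.2, 22.3 and 23.2 CPM in control libraries. The log2 difference was 0.88 (SE 0.26). The exact permutation p of 0.00216 is the smallest that 924 relabelings of 6 against 6 calves can give. Every gene without overlap has this p, so it adds nothing to the separation. With labels unrelated to expression, no overlap in either direction has that same probability. Of the genes tested, 0.158% had no overlap with weaned calves higher and 0.0215% with weaned calves lower. Without calves 1755 and 1758 the log2 difference of TRAT1 was 0.57. KLRK1, the activating NKG2D receptor of NK and cytotoxic T cells, was at a median of 11.0 against 8.01 CPM (log2 difference 0.62, SE 0.32). GZMA, a granzyme of cytotoxic granules, was at 9.08 against 11.7 CPM (log2 difference -0.51, SE 0.42), so the cytotoxic markers did not lean one way.

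HAAO, an enzyme late in the kynurenine route from tryptophan to NAD, was 1 of 3 genes with every weaned calf below every control calf (0.0215% of those tested). It was sparsely counted, 18 reads in weaned and 43 in control libraries, at 0, 1.06 and 1.38 CPM against 1.55, 1.71 and 3.69 CPM. The gap between the groups, 1.38 to 1.55 CPM, lay within the 0.692 to 2.04 CPM that 3 reads make, depending on the library. The log2 difference was -1.26 (SE 0.52, exact permutation p = 0.00216, as in every gene without overlap), and on the flowcells that carried both treatments it was -0.84. KMO, which acts earlier in the same route, was at 1.62 against 0.775 CPM in the median (log2 difference 1.05, SE 0.52), in the opposite direction. Of the eicosanoid enzymes, PTGS1, the constitutive cyclooxygenase, was at 3.44, 5.53 and 7.03 CPM in weaned and 4.15, 8.63 and 35.4 CPM in control libraries. All 6 weaned calves were below the control median (log2 difference -1.17, SE 0.45), but control calf 1759, the shallowest library, held the highest value and without it the difference was -0.60. PLA2G4A, the phospholipase that releases arachidonic acid, gave a log2 difference of 0.66 that was 0.04 without calf 1758. ALOX15 gave -0.15 (SE 0.63), with control libraries from 0.540 CPM, in the library labelled calf 1755, to 411 CPM.

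Fibrillar collagens, products of fibroblasts rather than of leukocytes, and some other matrix genes were lower in weaned calves and uneven among control calves. COL1A1, the main chain of type I collagen, was at 0, 2.98 and 22.1 CPM in weaned and 0.289, 30.8 and 127 CPM in control libraries. The 3 control calves 1763, 1789 and 1803 held 79.0% of all COL1A1 reads of d 2, 80.2% of those of COL1A2 and 80.5% of those of COL3A1. The log2 differences were -2.38 (SE 0.97), -2.29 (SE 0.92) and -2.32 (SE 0.96) for COL1A1, COL1A2 and COL3A1, with exact permutation p-values of 0.177, 0.212 and 0.134. Decorin (DCN), a proteoglycan that binds collagen, was counted 2 times in weaned and 27 times in control libraries, at least 1.26-fold lower, and COL5A2 3 and 18 times, at least 1.05-fold lower. SPP1, or osteopontin, had 1 and 21 reads, 19 of them in control calf 1803. Over the 13 tested genes of the matrix list, 2 were higher and 6 lower at an unadjusted p under 0.05, with a median log2 difference of -1.07, and -1.02 without calves 1755 and 1758. Over all genes tested the shares were 2.47% and 0.903%, and of the 595 with a symbol 59 were higher and 28 lower. The summed level of the matrix list, in which the best counted genes weigh most, went the other way. It was at 35.5, 295 and 381 CPM in the lowest, median and highest weaned library and at 93.9, 144 and 275 CPM in the control libraries. The study had listed COL1A1 and COL1A2 among its d 2 pathway genes. They were chosen on these samples and are no independent evidence. The summed level of the fibroblast and endothelial markers was 10.9 to 47.0 CPM in weaned and 8.09 to 246 CPM in control libraries, with LUM, a fibroblast marker, at 0 in every library. The part of admixed cells in these differences was not tested.

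Other matrix genes did not share that direction. THBS1, thrombospondin 1, made by platelets and monocytes, was at 17.1, 175 and 216 CPM in weaned and 8.29, 69.1 and 146 CPM in control libraries. In 5 of 6 weaned calves it was above every control calf and in weaned calf 1762 it was above only 1 control calf, and the log2 difference of 1.25 (SE 0.56) had an exact permutation p of 0.134. FBN1, the microfibril protein fibrillin 1, was at 2.51, 51.6 and 208 CPM against 3.18, 6.43 and 16.8 CPM, with 3 weaned calves above and 2 below all control calves. Those above were calf 1758 and calves 1769 and 1773, which were already at 147 and 100 CPM on d 0, before treatment. Within calf 1755 FBN1 was at 158, 151 and 72.2 CPM on d 0, 1 and 7 and at 3.51 CPM in the library labelled as its d 2 sample. COL4A2, a basement membrane collagen, was at medians of 3.79 and 1.56 CPM (log2 difference 1.05, SE 0.61). Of the endothelial receptor kinases, TEK gave a log2 difference of 1.37 (SE 0.60) that was 0.64 without calf 1758, and KDR gave 0.66 (SE 0.48).

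The genes with the lowest p-values or the largest differences included several not in these groups. TMPRSS2, a transmembrane serine protease, was at 4.02, 9.44 and 12.4 CPM in weaned and 2.23, 3.53 and 7.01 CPM in control libraries, and 5 of 6 weaned calves were above every control calf (log2 difference 1.15, SE 0.35, exact permutation p = 0.013). The highest control library was that labelled 1755, and without calves 1755 and 1758 the difference was 1.29. GCNT4, a mucin-type glycosyltransferase, KCNJ10, an inwardly rectifying potassium channel, and RYR3, a calcium release channel, were highest in calf 1758, with log2 differences of 1.32, 1.35 and 2.54 that became 0.73, 0.81 and 1.45 without it. Among the other weaned calves, 1809 held 92 RYR3 reads and the rest 1 to 14, and calf 1809 was at 13.7 CPM on d 0. Of the solute carriers, SLC39A10, a zinc importer, gave 1.02 and SLC24A5, a sodium-calcium exchanger of pigment cells, gave 1.04, and without calf 1758 they gave 0.24 and 0.46. SNX4, a sorting nexin, had 14 reads in weaned and 1 in control libraries.

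On the lower side, SEMA5B, a semaphorin, was at 0, 1.47 and 3.01 CPM in weaned and 0.838, 4.69 and 6.65 CPM in control libraries, with 5 of 6 control calves above every weaned calf (log2 difference -1.55, SE 0.57). FBP1, the gluconeogenic enzyme fructose-1,6-bisphosphatase found in monocytes and macrophages, was at 10.0, 13.1 and 26.5 CPM in weaned and 2.16, 34.8 and 78.0 CPM in control libraries. Its lowest value was the library labelled 1755, and its log2 difference was -1.30 (SE 0.63) with that library and -1.54 without it. PSD2, an exchange factor for the small GTPase ARF6, and GUCY1A3, a subunit of the nitric oxide receptor guanylate cyclase, had 7 and 8 reads in weaned and 33 and 25 in control libraries, at least 1.70-fold and 1.38-fold lower. SLC12A3, a sodium chloride cotransporter, had 1 read against 9, and FGFR2, a fibroblast growth factor receptor, had 1 against 11.

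Among genes without a symbol, ENSBTAG00000002135 was at 29.9 to 120 CPM in weaned and 15.9 to 25.4 CPM in control libraries, with no overlap. Its log2 difference was 1.22 (SE 0.31, exact permutation p = 0.00216, as in every gene without overlap), and 0.79 without calves 1755 and 1758. ENSBTAG00000038663 had the smallest p of all genes (6.49e-05, edgeR adjusted p = 0.905), with 1 read in weaned and 223 in control libraries, at least 13-fold lower. Those reads came from 4 of the 6 control calves with 15 to 90 reads each, while control calves 1763 and 1789 had 0 and 1 reads. The gene was also lower in weaned calves on d 0, by a log2 difference of -3.05. ENSBTAG00000015118 was at 3.82 to 13.4 CPM in weaned and 11.4 to 22.1 CPM in control libraries (log2 difference -1.32, SE 0.30, exact permutation p = 0.00433).

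**Figure D4:**
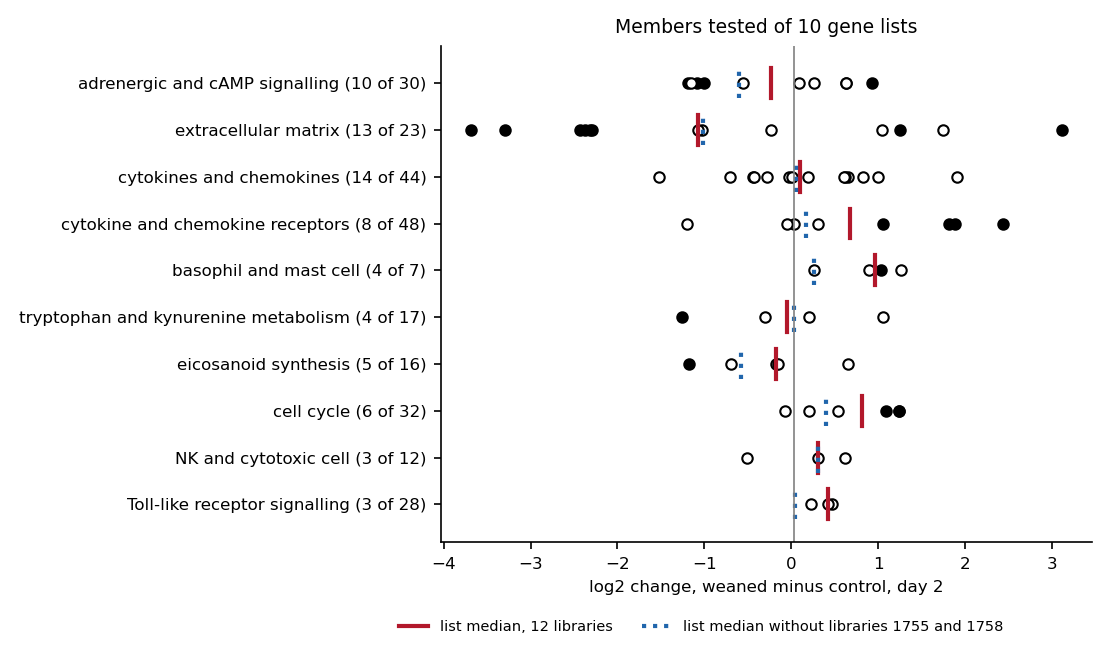
Each dot is a gene of 1 of 10 gene lists, with its log2 difference of weaned over control calves on d 2 on the horizontal axis, and filled dots are at an unadjusted p under 0.05. The red mark is the list's median over 12 libraries, the dotted blue mark is the median without calves 1755 and 1758, and the grey line is the median over all genes tested, 0.03. The matrix genes lie lowest, at -1.07 and -1.02 with both sets of libraries, while the receptor list moves from 0.68 to 0.18 and the basophil list from 0.96 to 0.26.

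Calves were not identical before treatment, and some differences of d 2 were present on d 0, when no calf had been housed or weaned. MYH14, a non-muscle myosin heavy chain, was at 21.8, 40.6 and 50.5 CPM in weaned and 31.3, 80.8 and 155 CPM in control libraries on d 2 (log2 difference -1.10, SE 0.33). The same difference was -0.89 on d 0, -1.04 on d 1 and -0.97 on d 7. LIF was 0.94 higher on d 0 and 0.87 on d 1, and IL12B 1.57 higher on d 0. THBS2, thrombospondin 2, with 22 and 6 reads on d 2, differed by 2.52 on the log2 scale on d 0, and ATP12A, a proton pump subunit, by -1.67 on d 2 and -1.54 on d 0, with -0.64 on d 2 on the flowcells that carried both treatments. PRSS1, a trypsinogen, rested on 1 animal: calf 1809 held 361 of the 371 weaned reads of d 2, and without it the log2 difference was 0.47 in place of 5.20. ULBP3, a ligand of NKG2D, had 70 reads in weaned libraries of d 2, of which calf 1770 held 66, and the same calf held 49 reads on d 0.

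To ask whether the difference between treatments on d 2 was other than that on d 0, the difference of differences was tested with each calf as its own block. None of 14733 genes was called (edgeR, 0%), with 1061 genes (7.2%) at an unadjusted p under 0.05, and 254 without calves 1755 and 1758. The log2 differences of ADRB3 for d 0, 1, 2 and 7 were 0.32, -1.21, -1.18 and 0.74. The last value leaned on weaned calf 1809, which held 319 of the 461 weaned reads of d 7, at 102 CPM. By the median of that day, ADRB3 was still lower in weaned libraries, at 8.75 CPM against 12.3 CPM in control libraries. From d 0 to d 2 ADRB3 went down in 6 of 6 weaned and 3 of 6 control calves. Its d 2 minus d 0 difference was -1.37 (SE 0.37, edgeR adjusted p = 0.505), and -1.24 without calves 1755 and 1758. FLT3 went from -0.18 on d 0 to 1.00 on d 1 and 1.06 on d 2, up in 5 of 6 weaned and 0 of 6 control calves, and its d 2 minus d 0 difference was 1.32 (SE 0.40, edgeR adjusted p = 0.505), or 1.18 without both calves. THBS1 went from -0.23 to 1.25 on d 2, up in 5 of 6 weaned and 1 of 6 control calves, with 1.43 for d 2 minus d 0 (SE 0.54, edgeR adjusted p = 0.505). FCER1A had 0.06, 0.94 and 1.03 on d 0, 1 and 2, and its d 2 minus d 0 difference of 1.06 was 0.59 without both calves. These 4 genes thus had small differences before treatment, and their d 1 and d 2 values lay on the same side.

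The collagens went the other way on d 0. COL1A1 had log2 differences of 1.73, -0.06, -2.38 and -2.48 on d 0, 1, 2 and 7, and its d 2 minus d 0 difference was -3.73 (SE 1.32, edgeR adjusted p = 0.505). From d 0 to d 2 it went down in 5 of 6 weaned calves and up in 4 of 6 control calves, so that the higher group was not the same on both days. Few calves carried the COL1A1 reads on the other days too. On d 0 weaned calves 1769, 1770 and 1809 held 490, 548 and 616 reads and the other weaned calves 4 to 78. On d 7 control calf 1802 held 508 and the other control calves 24 to 165. The tested genes of the matrix list had a median of 1.24 on d 0 and -1.07 on d 2. OIP5, lower in weaned calves on d 0 (-1.54) and higher on d 2, KLRK1 (-0.95 and 0.62) and TLR7 (-0.57 and 0.43) also differed in sign between these days. The d 2 minus d 0 differences of these 3 genes were 2.91 (SE 0.88), 1.46 (SE 0.49) and 0.95 (SE 0.30), and their edgeR adjusted p was 0.505. These values include calves 1755 and 1758. OIP5 and TLR7 were highest in calf 1758 on d 2, and its d 0 library was closest to a library of another calf. Over all genes, those at an unadjusted p under 0.05 (edgeR) fell from 1061 to 254 without both calves. Whether the sign changes of these 3 genes hold without both calves is not given here.

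Against d 1, none of 14829 genes was called (edgeR, 0%). An unadjusted p under 0.05 was reached by 109 genes (0.735%) in edgeR, by 37 in DESeq2 and by 489 in edgeR without calves 1755 and 1758. Against d 7 none of 14735 genes was called in edgeR (0%), with 1225 genes (8.31%) at an unadjusted p under 0.05, and 235 without the calf block. FOSB came nearest, higher in weaned calves by 0.68 on d 1 and 0.72 on d 2 and lower by 1.04 on d 7 on the log2 scale. Its d 2 minus d 7 difference was 1.72 (SE 0.28, edgeR adjusted p = 0.115), and DESeq2 gave an adjusted p of 8.11e-06. At an unadjusted p under 0.05, d 7 itself held 2452 genes higher in weaned calves (17.6%) and 1100 lower (7.9%). The same counts were 293 (2.1%) and 575 (4.13%) on d 0, before any treatment, and 145 (1.03%) and 279 (1.98%) on d 1.

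**Figure D5:**
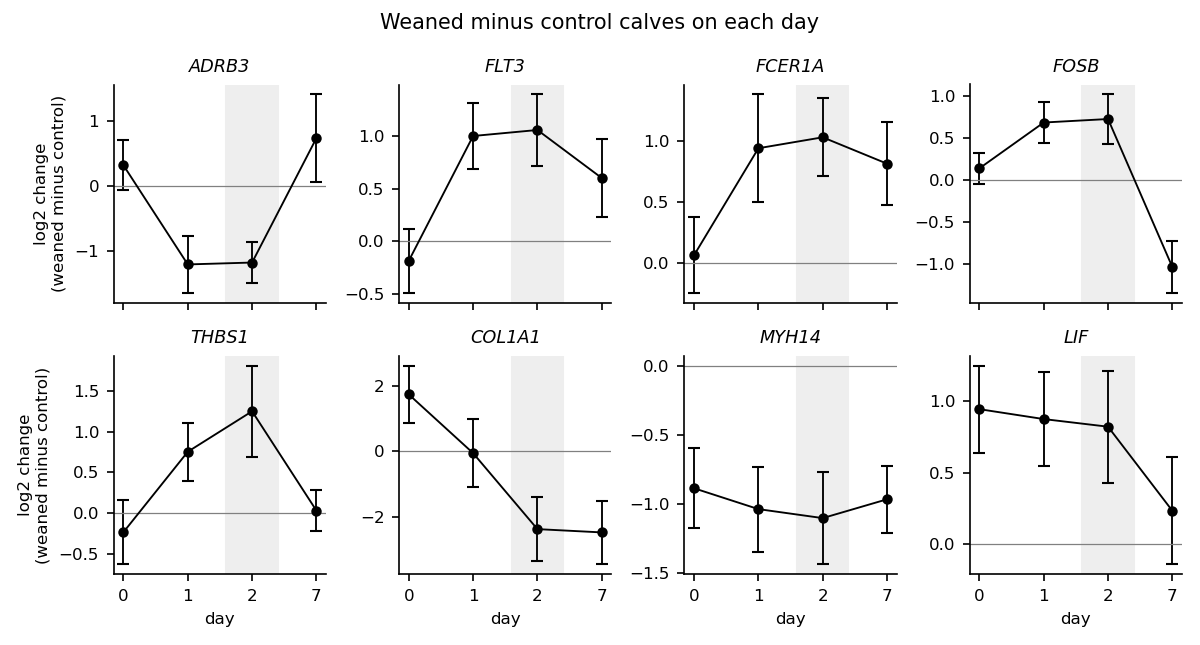
Panels show 8 genes with the day of sampling on the horizontal axis and the log2 difference of weaned over control calves on the vertical axis, with bars of ± 1 SE and d 2 shaded. ADRB3, FLT3 and FCER1A are near 0 on d 0 and stand apart on d 1 and 2, FOSB turns from 0.72 on d 2 to -1.04 on d 7, COL1A1 turns from 1.73 on d 0 to -2.38 on d 2, and MYH14 lies between -0.89 and -1.10 on all days.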

How the data were processed

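Counts per gene were used as the authors deposited them, not normalised, for 25669 Ensembl genes in 48 libraries, with 0 columns of other samples. Per the study's methods and processing notes, 36 bp single reads of the Genome Analyzer II (CASAVA 1.6, FastQC 0.9.1) were aligned to Btau4.0 with Bowtie 0.12.7 without mismatches, reads with several locations were discarded, 1 read per position was kept and HTSeq 0.4.6p2 counted the rest in union mode over Ensembl annotation. Keeping 1 read per position caps the counts of abundant genes, and reads of near-identical copies are lost. A strand setting is not given in the sources used here, so a gene and its antisense partner cannot be told apart. Each library had 1 lane, and the 8 flowcells are given in the labels.

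A gene was tested on d 2 if its 12 libraries held 10 counts or more together, by the quasi-likelihood F statistic of edgeR 4.0.16 (R 4.3.3) after TMM scaling. A call needed an adjusted p (Benjamini-Hochberg) under 0.05 and at least a 2-fold difference. Standard errors are the log2 difference divided by the square root of F. Differences between days were fitted over 24 libraries with the calf as block, since the same animals were sampled on each day. For each calf, its departure from its group's mean on d 2 and that on another day correlated at a median of 0.287 with d 0, 0.325 with d 1 and 0.399 with d 7. Single genes were also tested on log2(CPM + 1), pseudocount 1, by a two-sided exact permutation over 924 relabelings, and these p-values were not adjusted over genes. A fold against a group at or under 3 counts per library is given as a bound against that floor, which covers counting error only. In simulated data, where only better counted genes were set apart, the d 2 minus d 0 test recovered 24% of 2-fold and 78% of 4-fold differences.

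Symbols came from the study's list of bovine and human gene pairs, where 643 of 2324 pairs had one, and unmatched genes are not named. Named genes were, in each direction, the 12 with a symbol and the smallest p, the leading and defining members of gene and marker lists, the study's d 2 pathway genes and those leading under any alternative, and 1 of them is not reported here. The comparison, the genes and the lists were chosen with earlier results of these data known. Alternatives were other size factors, filters and fits, DESeq2 1.42.0, edgeR exact tests, flowcell as a block, each calf left out and, chosen after seeing the data, the libraries that stood apart left out.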

Additional observations from a re-analysis of the deposited data

Results flagged for a closer look

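In 28 of 134 groups of 6 calves, the values of a named gene on d 2 (log2(CPM + 1)), or the library totals, had an extreme library whose gap to its neighbour, as a share of the group's range, was above Dixon's critical value. Chance flags about 1 in 20 groups, and groups of a few reads reach a share of 1.0 from a single read. Of the 28, 8 were the highest weaned library 1758. They were IL23R (gap share 0.701), IL5RA (0.799), TEK (0.744), TRAT1 (0.632), TLR3 (0.716), CCNE2 (0.653), KCNJ10 (0.762) and SLC39A10 (0.754), with 12 to 563 reads in that library.

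Other weaned libraries stood alone in genes discussed above. In calf 1762 THBS1 was low (gap share 0.887) and HSPA6 high (0.853). Calf 1809 was high in PRSS1 (0.846), calf 1770 in ULBP3 (0.857) and calf 1773 in FOSB (0.719). With 1 to 3 reads in that library, SPP1 in calf 1769, COL5A2 and FGFR2 in calf 1770 and SLC12A3 in calf 1809 each had a share of 1.0.

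Among control libraries, the one labelled 1755 was lowest in ALOX15 (gap share 0.695) and held the only read of SNX4 (1.0). Calf 1759 had the lowest total count (0.727) and the highest IL8 (0.796, from 3 reads). Calf 1802 was highest in RYR3 (0.661) and EDAR (1.0, from 1 read) and lowest in TRAT1 (0.648). Calf 1803 was highest in SPP1 (0.875) and ULBP3 (1.0, from 1 read) and lowest in SEMA5B (0.745), and calf 1763 was highest in HAAO (0.711).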

How the results depend on the processing

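On d 2 no gene was called with other size factors, without a filter, with filterByExpr, with a robust fit, with DESeq2, with all 48 libraries in 1 fit, with flowcell as a block, on flowcells with both treatments or without any single calf. The common-dispersion exact test called 75 genes, 59 without library 1758 and 70 without libraries 1755 and 1758, and tagwise dispersions called 1. At an unadjusted p under 0.05, the 470 genes became 296 with filterByExpr, 1124 with the common dispersion, 249 with flowcell as a block, 251 on flowcells with both treatments and 268 without libraries 1755 and 1758. Leaving out 1 calf gave 291 (without 1758) to 792 (without 1762). For d 2 minus d 0, leaving out 1 calf gave 409 (without 1755) to 2856 (without 1762) genes at that threshold, calves 1758, 1759, 1763, 1789 and 1809 also moving it by over 1.5 times, and there were 254 without 1755 and 1758. For d 2 minus d 1 the range was 81 to 221, with calves 1758 and 1759 moving it most, and the value was 37 in DESeq2 and 489 without 1755 and 1758. For d 2 minus d 7 the range was 658 (without 1789) to 3295 (without 1809), with 1755, 1770 and 1773 also moving it by over 1.5 times, and there were 290 without 1755, 1758 and 1770. Without the replicate block the counts were 1251 for d 0, 121 for d 1 and 235 for d 7, with no call gained or lost. The genes called for d 2 minus d 7 were 0 to 1 when 1 calf was left out and 1 without a filter and in DESeq2, in each case FOSB (without control calf 1763, adjusted p = 0.00608). None was called without 1755, 1758 and 1770. Weaned and control calves of d 2 are different animals, so no paired fit of them was made. Of 66 named genes, 61 kept their direction under all alternatives, and 23 passed the adjusted threshold under common-dispersion settings only. IL5RA was -0.30 with flowcell as a block, -0.27 on flowcells with both treatments, -0.98 without both libraries, -0.997 and -0.77 in the common-dispersion test without both and without 1758, and -0.75 to 1.16 with 1 calf left out. IL8 was -0.52 with either flowcell setting. CXCL10 was 0.058 in DESeq2, 0.026 with tagwise dispersions and -1.44 to 0.41 with 1 calf left out, ALOX15 -0.40 to 0.19 and HSPA6 -0.52 to 2.13. The causes were not tested. Leaving out libraries 1755 and 1758 was chosen after seeing the data. At 3 counts per library, genes under 0.692 to 2.04 CPM could not be compared.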

Other observations

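Over all days, 4 of the 48 libraries were closest, on 150 genes that differ between animals, chosen for each calf on the other calves, to a library of another calf. The d 0 library of weaned calf 1758 correlated at best at 0.18 with its own calf and at 0.57 with the d 2 library labelled 1755, the same pair as above on the genes chosen for calf 1758 in place of 1755. The d 7 library labelled 1758 was closest to calf 1770 on d 1 (0.71), and the d 7 library labelled 1770 was closest to calf 1758 on d 2 (0.51). ULBP3 followed the same lines: calf 1770 had 49, 57 and 66 reads on d 0, 1 and 2 and 29 on d 7, and the d 7 library labelled 1758 had 47, against 0 reads in calf 1758 on the other days. Why these libraries did not match their labels was not tested.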
